A study of Rattus norvegicus with 12 samples.

Results

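The 5 genes described here encode enzymes and a carrier that are among those that set gluconeogenesis apart from glycolysis: Pck1, Fbp1, Fbp2, G6pc1 (written G6pc on the array) and Slc37a4. Every probe of the array whose gene name or accession maps to 1 of them was taken, whatever its signal, which gave 9 of the 41012 probes, a pair for each gene except Fbp2, which had 1. That rule for probes used no measured values, but the 5 genes themselves were chosen with earlier results of these data known. The RNA came from kidney cortex of male Fisher 344 rats aged 8 weeks, killed 24 h after 1 intravenous injection, with 3 animals in each of 4 groups and 1 single-colour Agilent array per animal. The groups were control animals, which got the saline vehicle alone (0 mg/kg), and low, middle and high groups, which got the cephalosporin antibiotic cephaloridine in saline at 150, 300 and 600 mg/kg. All animals were thus injected, were of 1 sex and strain, and were examined at 1 time. Cortex is whole tissue, so a lower signal can mean fewer cells of a type or less RNA per cell, and these cannot be told apart here.

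Gluconeogenesis makes glucose from lactate, glutamine and glycerol, and in the kidney it is a task of the proximal tubule, where the substrates are reabsorbed from the filtrate. Most of its steps run glycolysis backwards with shared enzymes, but a few steps of glycolysis are irreversible and need enzymes of their own. Cytosolic phosphoenolpyruvate carboxykinase (Pck1) turns oxaloacetate into phosphoenolpyruvate, fructose-1,6-bisphosphatase (Fbp1, and its muscle isozyme Fbp2) removes a phosphate further on, and the glucose-6-phosphatase catalytic subunit (G6pc1) frees glucose inside the endoplasmic reticulum, to which the carrier Slc37a4 brings glucose 6-phosphate. Cephaloridine is taken up by proximal tubule cells and damages them.

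Signals are log2 processed signals minus the 75th percentile of the same array, so 0 is that percentile and a value of 6.84 is far above it. A difference of 1 is a 2-fold difference. Across the 12 arrays the 75th percentile lay between 677 and 774 signal units, 59.2% to 63.3% of probes were well above background, and 0 spots were saturated. All 9 probes were well above background on all 12 arrays. The brighter probe stands for a gene in the tests and the other probe is given beside it. A change is called at an adjusted p under 0.05 in limma's moderated test over 20759 genes or unmatched transcripts. The labels number the arrays of a group as replicates without saying that each is a separate animal. They are taken here as 1 animal each, and p-values measure only the spread between these samples. Control and high animals were never on the same slide: slide 1 held the 3 controls with low animal 1, slide 2 held low 2 and middle 1, slide 3 held low 3 and middle 2, and slide 4 held middle 3 with the 3 high animals. For the contrast of high against control, slide and dose are therefore separated only through the low and middle animals.

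The 3 genes that fell at the high dose, given below, each have a promoter window in RefSeq, printed 5′ to 3′. Each window (build GRCr8) runs from 250 bases before to 50 after the start of transcription. These genes were picked by their fall in the fit without a block, and whether they share a regulator was not tested. Capitals mark the motifs found by a search of both strands for 5 short sequences. ACGTCA is the core of a cAMP response element. TATAAA is the box found upstream of many start sites, TGTTTTG the core of an insulin response sequence. CAAAGTCCA is the core of a site for the receptor Hnf4a. TGTTCT is the glucocorticoid half-site. None of the marked motifs overlap.
Pck1, chr3:182348322-182348621, plus strand: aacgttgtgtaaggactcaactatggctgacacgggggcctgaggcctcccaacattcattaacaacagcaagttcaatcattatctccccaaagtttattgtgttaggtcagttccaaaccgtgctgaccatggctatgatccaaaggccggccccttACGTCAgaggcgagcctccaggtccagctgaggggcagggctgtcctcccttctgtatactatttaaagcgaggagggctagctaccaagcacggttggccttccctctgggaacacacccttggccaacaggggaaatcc
G6pc1, chr10:86807409-86807708, plus strand: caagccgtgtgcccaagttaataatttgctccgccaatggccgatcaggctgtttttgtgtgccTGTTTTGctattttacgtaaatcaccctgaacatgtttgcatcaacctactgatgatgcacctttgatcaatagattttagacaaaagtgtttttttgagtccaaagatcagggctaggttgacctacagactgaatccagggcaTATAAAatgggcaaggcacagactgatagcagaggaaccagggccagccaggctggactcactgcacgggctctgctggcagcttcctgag
Slc37a4, chr8:53619775-53620074, plus strand: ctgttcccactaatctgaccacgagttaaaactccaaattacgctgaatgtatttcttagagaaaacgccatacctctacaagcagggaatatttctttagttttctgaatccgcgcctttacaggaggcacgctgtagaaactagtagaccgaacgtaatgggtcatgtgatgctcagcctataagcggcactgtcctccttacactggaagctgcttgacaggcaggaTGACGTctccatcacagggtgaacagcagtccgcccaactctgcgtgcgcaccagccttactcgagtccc
In Pck1 the capitals mark ACGTCA, whose first base lies 91 bases before the start. In Slc37a4 they mark TGACGT, the same motif on the other strand, with its first base 20 bases before the start. In G6pc1 they mark TGTTTTG and TATAAA, with first bases 186 and 41 bases before the start. ACGTCA, read on both strands, is in 7.94% of the 33469 windows of that length, TATAAA in 14.2% and TGTTTTG in 6.28%. CAAAGTCCA is in 0.391% of the windows and TGTTCT in 20.7%, and neither was found in the windows of these genes. The window of Fbp1 holds none of the 5 motifs. Slc37a4 has a second window that overlaps the one printed and holds the same copy of TGACGT. A window was found for 4 of the 5 genes, all but Fbp2. A match in these letters is a description of the sequence, not a binding site.

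At 600 mg/kg the 5 genes did not move together. G6pc1, Pck1 and Slc37a4 fell, by 1.89-fold, 1.59-fold and 1.31-fold against control, Fbp2 rose 2.70-fold, and the brighter probe of Fbp1 did not pass the test. That made 4 of 5 genes called, 3 lower and 1 higher, in a comparison in which 34.8% of all tested genes were called, 16.8% lower and 18% higher. The values of the high and control animals did not overlap for any of the 5, with 4 lower and 1 higher, against 27.6% of all tested genes lower and 28.4% higher by the same count. The median change over the 5 genes was -0.39 on the log2 scale and that over all tested genes was -0.0021.

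Pck1, the enzyme that commits oxaloacetate to glucose synthesis, had log2 signals of 6.79, 7.01 and 6.96 in the control animals, 7.21, 6.71 and 6.87 at 150 mg/kg, 6.80, 6.78 and 6.79 at 300 mg/kg, and 6.11, 6.29 and 6.35 at 600 mg/kg. The high animals lie below all 9 others, while the low animals spread on both sides of the controls. The high group averaged 6.25 ± 0.12 and the control group 6.92 ± 0.12 (SD, n = 3 each), a change of -0.67 (standard error 0.12, adjusted p = 0.00186 in limma). The other probe, spotted 10 times on each array, read 5.25, 5.46 and 5.42 in the high animals and 6.06, 6.26 and 6.22 in the controls. Its fall was of 0.80 (adjusted p = 0.000911, limma over all probes), so both probes fell. The standard deviation between its 10 spots on 1 array was 0.0392 in the median array and 0.0897 at most, smaller than the spread between animals of a group.

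Fbp1, the liver and kidney isozyme of fructose-1,6-bisphosphatase, gave different answers on its 2 probes. The brighter probe read 8.55, 8.60 and 8.61 in the controls, 8.61, 8.57 and 8.53 at 150 mg/kg, 8.42, 8.58 and 8.67 at 300 mg/kg, and 8.45, 8.44 and 8.44 at 600 mg/kg. The high animals were below the controls, but middle animal 1 was lower still. Its change at the high dose was -0.14 (standard error 0.06, 95% interval -0.27 to -0.015), which did not pass over all genes (adjusted p = 0.0800, limma). It passed in fits without middle animal 1 (adjusted p = 0.0216) or middle animal 3 (adjusted p = 0.0419), which leave the value as it is and change the spread. The other probe read 5.64, 5.60 and 5.79 in the controls, 5.86, 5.61 and 5.78 at 150 mg/kg, 5.62, 5.68 and 5.68 at 300 mg/kg, and 5.14, 5.08 and 5.21 at 600 mg/kg, with the high animals below all others. It fell by 0.54 (1.45-fold, standard error 0.07, adjusted p = 0.000469, limma over all probes). The processed signals of the brighter probe were 226987, 232817 and 231355 in the high animals and 255025, 251904 and 251544 in the controls, and its spots were not marked as saturated. On every array the spots of both Fbp1 probes were marked as scaled up from a scan at low gain. The same mark stood on both Pck1 probes, both Slc37a4 probes and the brighter G6pc1 probe, so it is not particular to Fbp1. The difference between the probes was not tested, and the sequences of the probes were not used here. With both probes averaged, Fbp1 fell by 0.34 (adjusted p = 0.00137, limma). Taken probe by probe, 7 of the 9 were called lower at the high dose, against 16.8% of the 24728 tested probes, with only the brighter Fbp1 probe and the Fbp2 probe not among them.

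G6pc1, the subunit that releases free glucose, had the largest fall of the 5 genes. Its brighter probe read 6.74, 6.84 and 6.93 in the controls, 6.93, 6.71 and 7.01 at 150 mg/kg, 6.98, 6.98 and 7.08 at 300 mg/kg, and 5.78, 6.02 and 5.95 at 600 mg/kg. The 3 middle animals and low animal 3 were the highest, and the 3 high animals were lowest by a wide margin. The high group averaged 5.92 ± 0.12 and the control group 6.84 ± 0.09 (SD, n = 3 each), a change of -0.92 (standard error 0.09, adjusted p = 8.07e-05, limma). The other probe read 1.96, 2.29 and 2.20 in the high animals and 3.29, 3.30 and 3.51 in the controls, and fell by 1.21 (2.32-fold, adjusted p = 0.000122, limma over all probes).

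Slc37a4, the glucose 6-phosphate carrier that works with G6pc1, followed the same course with a smaller fall. It read 5.95, 5.97 and 6.12 in the controls, 6.20, 6.02 and 6.03 at 150 mg/kg, 6.16, 6.21 and 6.09 at 300 mg/kg, and 5.60, 5.56 and 5.70 at 600 mg/kg. No high animal reached the lowest of the other 9. The change at the high dose was -0.39 (standard error 0.07, 95% interval -0.54 to -0.24, adjusted p = 0.00179, limma). The other probe fell by 0.41 (adjusted p = 0.0038, limma over all probes).

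Fbp2, known as the fructose-1,6-bisphosphatase of muscle, ran the opposite way. Its single probe read -0.75, -0.69 and -0.54 in the controls, -0.16, -0.31 and -0.28 at 150 mg/kg, 0.76, 0.86 and 0.57 at 300 mg/kg, and 0.73, 0.74 and 0.84 at 600 mg/kg. Every dosed animal was above every control, and every animal at 300 or 600 mg/kg was above every one at 150 mg/kg. The high group averaged 0.77 ± 0.06 and the control group -0.66 ± 0.11 (SD, n = 3 each), a rise of 1.43 (standard error 0.08, 95% interval 1.25 to 1.61, adjusted p = 4e-06, limma). Fbp1 and Fbp2 are related in sequence and lie next to each other on chromosome 17, while Pck1, Slc37a4 and G6pc1 are on chromosomes 3, 8 and 10, as RefSeq's gene table places them. Signal of 1 isozyme on the other's probe was not tested. Of the skeletal muscle markers on the array, Ckm, Acta1 and Myh4 were well above background on 0 of the 12 arrays and Actn3 only on 2 high arrays. Tnnt3, the only one bright enough to be tested, had a change of 0.29 at the high dose against control (adjusted p = 0.214, limma). Its signal was higher at 600 than at 300 mg/kg (adjusted p = 0.0210 in limma, and 0.0403 in the blocked fit described further on), a comparison in which Fbp2 was not called. Tnnt3 was well above background on 3 control, 2 low, 1 middle and 3 high arrays. The log2 change of 0.66 fitted there thus starts from signals mostly not above background, and its size is uncertain.

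**Figure D1:**
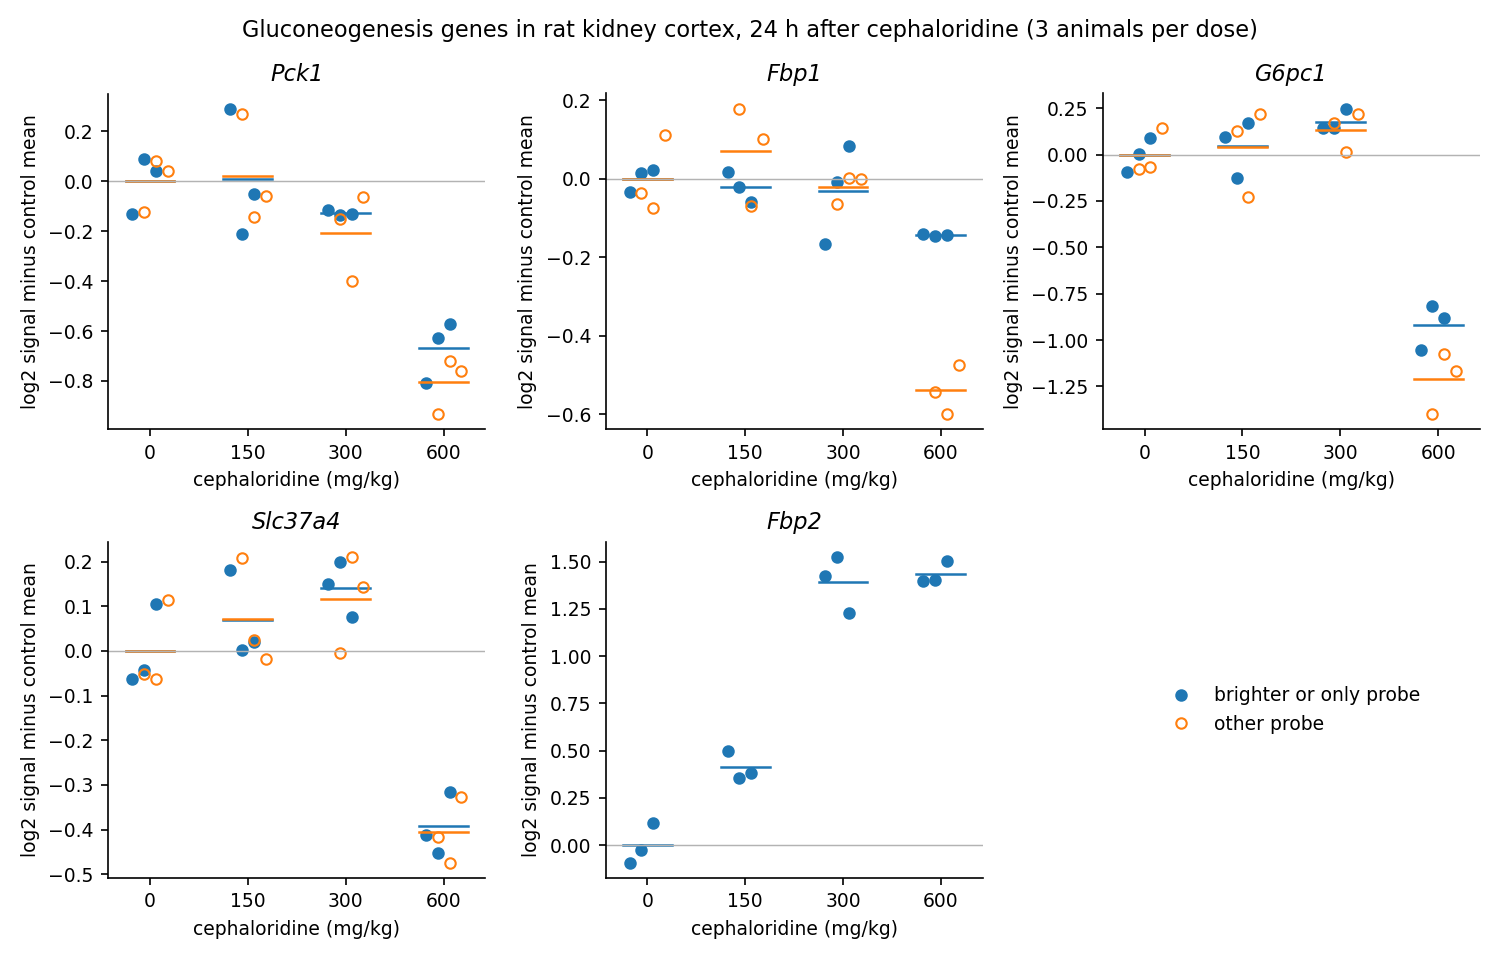
Log2 signal of each animal minus the mean of the control animals for the same probe (vertical axis, a scale of its own in each panel) against dose in mg/kg, for Pck1, Fbp1, G6pc1, Slc37a4 and Fbp2. Points are animals, 3 per dose, bars are group means, filled points are the brighter or only probe and open points the other probe. Pck1, G6pc1 and Slc37a4 lie low at 600 mg/kg, with changes of -0.67, -0.92 and -0.39, the Fbp1 probes part there (-0.14 and -0.54), and Fbp2 climbs to 1.39 at 300 mg/kg and 1.43 at 600 mg/kg.

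At 300 mg/kg against control, Fbp2 was the only 1 of the 5 genes called, where 13% of all tested genes were called and 8.21% were called higher. It rose 2.62-fold (log2 1.39, standard error 0.08, adjusted p = 4.79e-05, limma). G6pc1 was higher in each middle animal than in any control, with a change of 0.18 that did not pass (95% interval -0.017 to 0.37, adjusted p = 0.201). G6pc1 and Fbp2 thus made 2 of 5 genes higher without overlap, against 20.5% of all tested genes. Slc37a4 had a change of 0.14 (adjusted p = 0.186), Pck1 of -0.13 (adjusted p = 0.492) and Fbp1 of -0.031 (adjusted p = 0.756). The 95% interval for Pck1 ran from -0.38 to 0.13, and that at the high dose from -0.93 to -0.41. Both rest on the same controls, so setting them side by side is no test between the doses. The comparison of 600 against 300 mg/kg is given below.

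At 150 mg/kg against control, 0 of the 5 genes were called by limma, where 0.101% of all tested genes were called, and only Fbp2 had a p under 0.05 before adjustment. Fbp2 was 1.33-fold higher (log2 0.41, 95% interval 0.23 to 0.59, adjusted p = 0.132 in limma), with each low animal above each control. It was the only 1 of the 5 without overlap upwards, against 11% of all tested genes. The changes of the other 4 genes lay between -0.021 for Fbp1 and 0.068 for Slc37a4.

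At 300 against 150 mg/kg, Fbp2 rose 1.97-fold (log2 0.98, standard error 0.08, adjusted p = 0.00151, limma), a comparison in which 0.231% of all tested genes were called, with 0.193% called higher. The middle animals were all above the low ones for Fbp2 alone among the 5, against 12.3% of all tested genes. At 600 against 300 mg/kg Fbp2 had a change of 0.040, with a 95% interval of -0.14 to 0.22 (adjusted p = 0.770), and the animals of the 2 doses overlapped. The 3 genes that fell did so in this last comparison too, where 22.5% of all tested genes were called and 12.9% were called lower. G6pc1 fell by 1.10 (2.14-fold, adjusted p = 5.13e-05, limma), Slc37a4 by 0.53 (1.45-fold, adjusted p = 0.000569) and Pck1 by 0.54 (1.46-fold, adjusted p = 0.00839). Fbp1 had a change of -0.11 on its brighter probe (adjusted p = 0.194, but -0.18 and 0.0233 without middle animal 1), and its other probe fell by 0.52 (adjusted p = 0.000968, limma over all probes). High and middle animals did not overlap for the same 3 genes, against 21.2% of all tested genes lower. In the F test for any difference among the 4 groups, 4 of the 5 genes were called and Fbp1 was not (adjusted p = 0.203), where 34.2% of all tested genes were called. The comparisons that share a group are not independent: those against control share the 3 control animals.

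With slide as a block, the 600 mg/kg comparison with control kept 1 call of 5, that of Fbp2 (log2 1.80, standard error 0.15, adjusted p = 0.00878), where 2.81% of all tested genes were called. G6pc1 had nearly the same change with the block, -0.95, with a larger standard error of 0.20 (adjusted p = 0.0586). The changes of Pck1 and Slc37a4 shrank to -0.24 and -0.12 (adjusted p = 0.524 and 0.651), and that of Fbp1 was -0.25 (adjusted p = 0.233). This contrast has no slide with both groups and passes through low animal 1, the only dosed animal on the slide of the controls. Low animal 1 had the highest Pck1 and Slc37a4 of the low animals, 0.29 and 0.18 above the mean of the controls on its slide. The contrast passes on through slides 2 and 3, where middle minus low was 0.097 and -0.088 for Pck1 and 0.15 and 0.18 for Slc37a4. On slide 4, where the 3 high animals can be set beside middle animal 3, the difference of high minus middle was -1.16 for G6pc1, -0.54 for Pck1, -0.47 for Slc37a4, and -0.23 and -0.54 for the Fbp1 probes.

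The step between the 2 upper doses rests, in the blocked fit, on slide 4 alone, that is on the 3 high animals against 1 middle animal, whose spread is assumed to be that of the other samples. In that fit G6pc1, Slc37a4 and Pck1 were called at 600 against 300 mg/kg, where 9.75% of all tested genes were. Their log2 changes were -1.16 (adjusted p = 0.00384), -0.47 (adjusted p = 0.0212) and -0.54 (adjusted p = 0.0370). Fbp2 kept its calls at 300 mg/kg against control (log2 1.60, adjusted p = 0.00835, 0.217% of all tested genes called) and at 300 against 150 mg/kg (log2 1.10, adjusted p = 0.00702, 0.342% called). Fbp2 could be read on slides that held neighbouring doses. Middle animals 1 and 2 were 1.07 and 1.14 above the low animals of their slides, low animal 1 was 0.50 above the controls of its slide, and the high animals were 0.20 above middle animal 3.

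**Figure D2:**
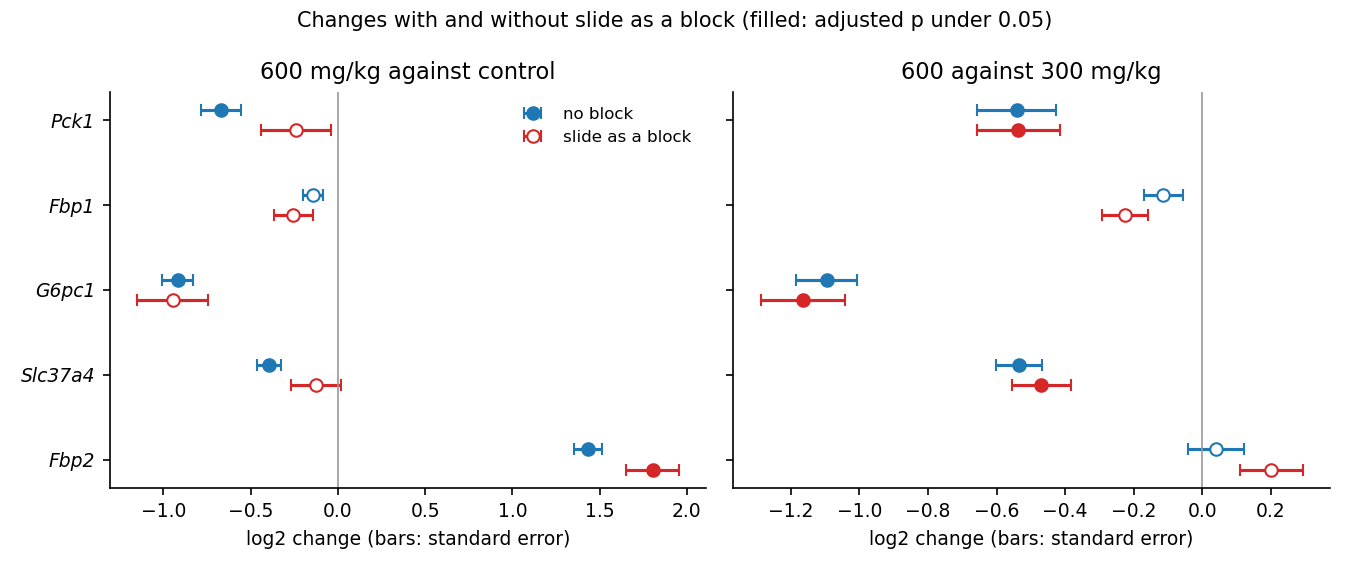
Log2 change of each gene (horizontal axis, bars are standard errors) at 600 mg/kg against control (left) and at 600 against 300 mg/kg (right), without a block in blue and with slide as a block in red, filled where the adjusted p is under 0.05. Against control only Fbp2 stays filled with the block, while at 600 against 300 mg/kg G6pc1, Pck1 and Slc37a4 are filled in both fits, the blocked one resting there on 1 middle animal.

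Of 14 shared and entry enzymes of the pathway, all tested, 4 fell and 2 rose at 600 mg/kg, with a median change of -0.050. These 6 of 14 stand beside 34.8% of all tested genes called in this comparison, 16.8% lower and 18% higher, the shares against which the list counts that follow are to be read. Pyruvate carboxylase (Pc), which makes the oxaloacetate that Pck1 uses, had signals of 6.71, 6.57 and 6.69 in the high animals and 7.26, 7.17 and 7.26 in the controls. It fell by 0.57 (adjusted p = 0.000242, limma). The widely expressed aldolase Aldoa rose by 0.39 (adjusted p = 0.000125, limma) and Gapdh by 0.16 (adjusted p = 0.0233). Aldoa was already up by 0.40 at 300 mg/kg (adjusted p = 0.00123).

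Among 16 tested genes of substrate supply, out of 17 listed, 8 fell and 1 rose at 600 mg/kg, with a median of -0.19. Glycerol kinase (Gk), which brings glycerol into the pathway, fell by 0.43 (adjusted p = 0.000429, limma), and the citrate and succinate carrier Slc13a2 by 0.35 (adjusted p = 0.00232). Ldha, the lactate dehydrogenase subunit of glycolytic tissue, rose by 0.40 (adjusted p = 0.000118, limma; 0.0439 in the blocked fit). Its log2 signals were 2.73, 2.70 and 2.69 in the high animals and 2.32, 2.30 and 2.31 in the controls, so the groups lay apart.

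Of 20 tested regulators out of 22, 6 fell and 1 rose, with a median of -0.12, and 7 of 20 is about the 34.8% called over all tested genes. Hnf4a, a nuclear receptor needed for proximal tubule and liver gene expression, read 0.50, 0.54 and 0.59 in the high animals and 1.03, 0.97 and 1.01 in the controls. It fell by 0.46 (adjusted p = 0.000146, limma). In the blocked fit it fell by 0.54 (adjusted p = 0.0465), and it had a change of -0.023 at 300 mg/kg (adjusted p = 0.785). Ppargc1a, a coactivator of Pck1 and G6pc1 transcription in liver, fell by 0.54 (adjusted p = 0.00255), and it had fallen by 0.38 at 300 mg/kg (adjusted p = 0.0342). Creb1, which binds cAMP response elements, rose by 0.40 (adjusted p = 0.0280), but its change in the blocked fit was 0.012 (adjusted p = 0.984).

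Genes of glycolysis and pyruvate use leaned the other way by count, with 7 higher and 2 lower of 15 tested out of 18, and a median of 0.15. The mean log2 signal of the 15 was 0.48 to 0.58 in the high animals and 0.37 to 0.40 in the controls. Their summed signal went the opposite way. In units of each array's scaling percentile it was 104 to 107 in the high animals and 109 to 115 in the controls. Hexokinase 2 (Hk2), which traps glucose as glucose 6-phosphate, was well above background on 3 high, 2 middle, 1 low and 0 control arrays. It passed the filter on dim probes only through the high group, where it is brightest, so its place among the 7 depends on that filter. Without it the counts were 6 higher and 2 lower of 14, with a median of 0.12. Its signal was at least 1.62-fold higher in the high animals (adjusted p = 0.000731 in limma, and 0.246 in the blocked fit). That bound sets its mean signal in the high animals against the lowest signal of any probe well above background on each control array. Pfkfb1, an enzyme that makes and breaks fructose-2,6-bisphosphate, an activator of glycolysis and inhibitor of fructose-1,6-bisphosphatase, rose by 0.50 (adjusted p = 0.00284). Pklr, the pyruvate kinase of liver and proximal tubule, fell by 0.50 (adjusted p = 0.000652), and the pyruvate dehydrogenase kinase Pdk2 by 0.23 (adjusted p = 0.00496). Of 5 tested glucose transporters out of 6, the insulin-regulated Slc2a4 rose by 0.49 (adjusted p = 0.0121) and the proximal tubule cotransporter Slc5a2 fell by 0.49 (adjusted p = 0.000895).

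Of 9 tested genes in the glycogen list, out of 10, 5 rose and 1 fell, with a median of 0.28. Ugp2, which makes UDP-glucose, rose by 0.34 (adjusted p = 0.000673, limma), and the liver glycogen phosphorylase Pygl fell by 0.37 (adjusted p = 0.00267). Of the close relatives of the 5 genes, with 5 tested out of 6, 3 rose and 0 were called lower by limma: the glucose 6-phosphate carrier relative Slc37a1 by 0.34 (adjusted p = 0.0203), the ubiquitous phosphatase G6pc3 by 0.18 (adjusted p = 0.00843) and the mitochondrial carboxykinase Pck2 by 0.14 (adjusted p = 0.0367). In the blocked fit, 4 genes of these lists were called, where 2.81% of all tested genes were. They were 1 of 16 substrate supply genes, 1 of 20 regulators, 1 of 15 glycolysis genes and 1 of 9 glycogen genes. In the lists of 14 shared and entry enzymes, 5 relatives and 5 glucose transporters 0 were called by limma. Among the 4 were Ldha, Hnf4a and Pdk1 (log2 0.83, adjusted p = 0.0358), and Pdk1 was picked out after its value was seen. In that fit the changes of Slc37a1 and Slc2a4 lay on the other side of 0, at -0.030 and -0.12.

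**Figure D3:**
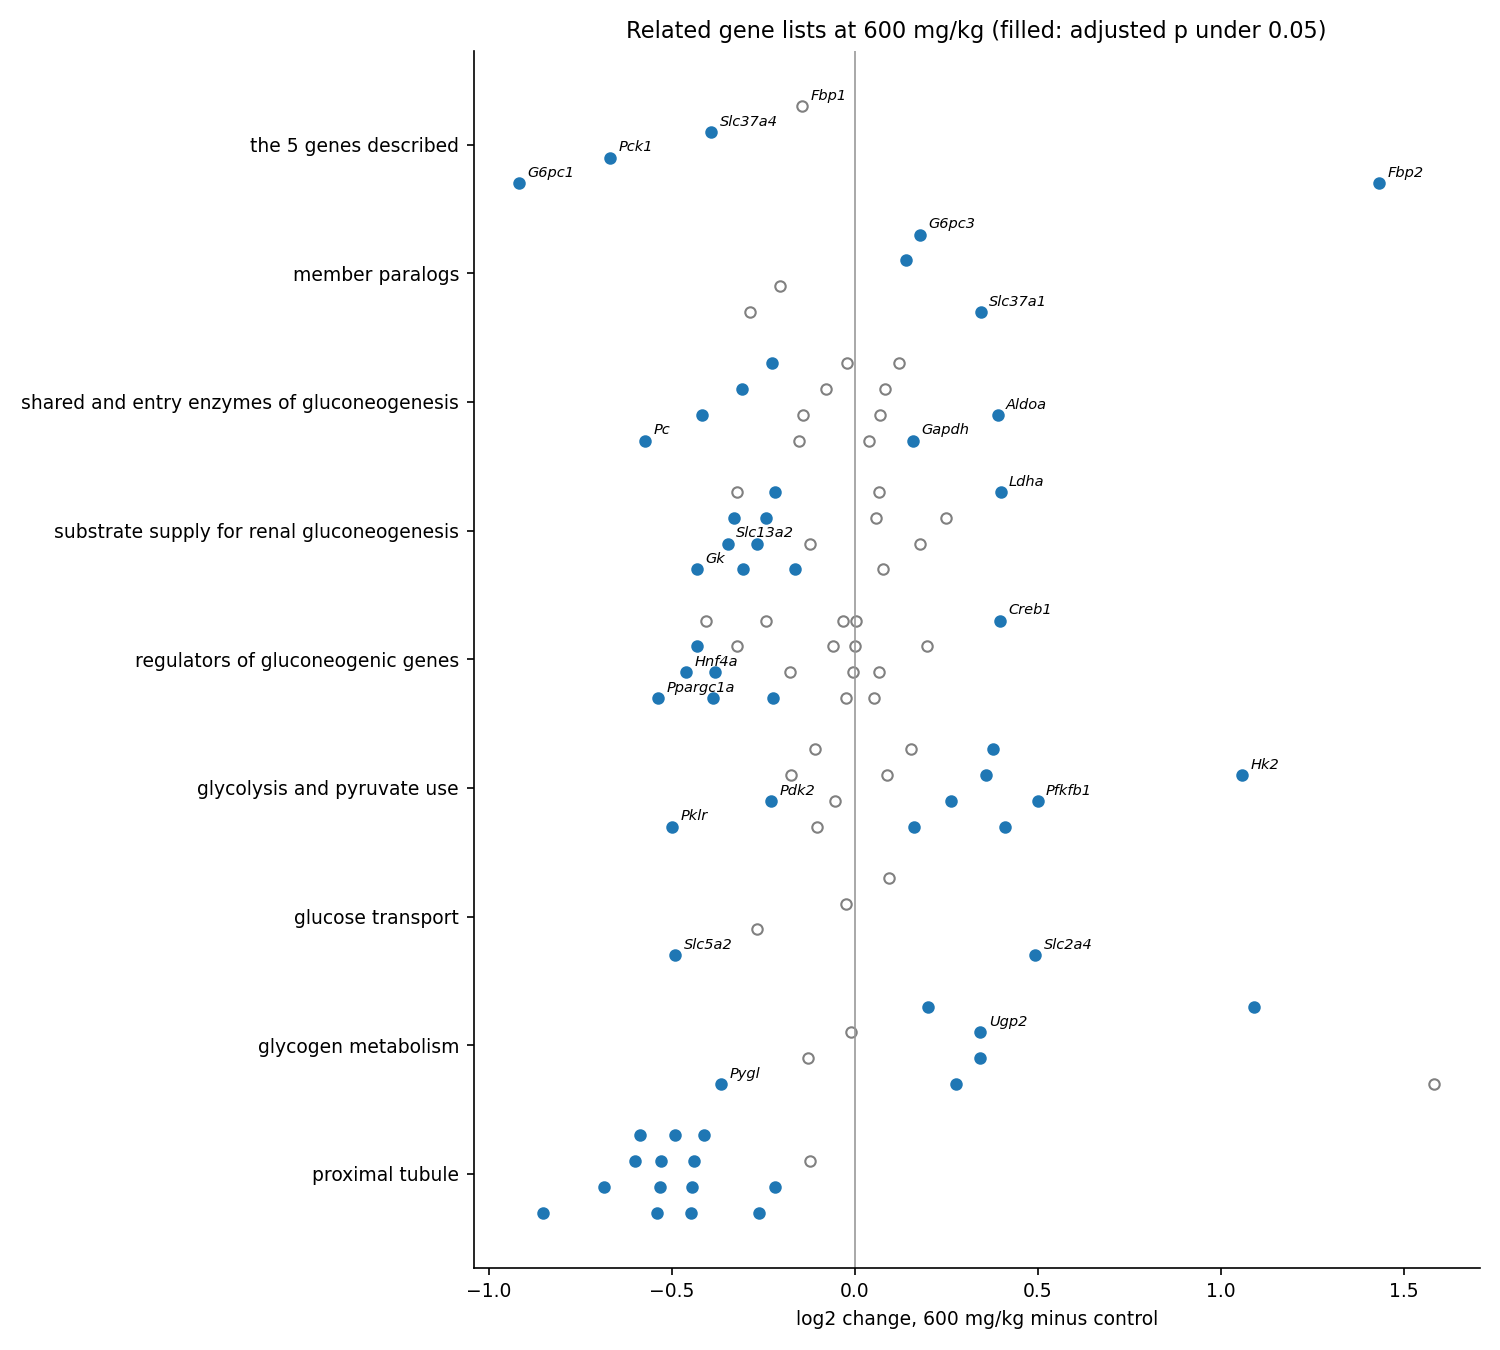
Log2 change at 600 mg/kg against control (horizontal axis) for every tested gene of each list, 1 list per row, with the height inside a row only spreading the points. Filled points have an adjusted p under 0.05, and the labelled ones are the 5 genes and some of the called genes of each pathway list. The substrate supply and proximal tubule rows lie mostly left of 0, with 8 and 14 genes called lower, and the glycolysis and glycogen rows mostly right of it, with 7 and 5 called higher. The 7 include Hk2, which passed the filter on dim probes only through the high group, and without it they are 6.

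Markers of the tissue differed at 600 mg/kg too, and their counts are to be set beside the 34.8% of all tested genes called. All 15 proximal tubule markers were bright enough to be tested, and 14 of them fell at 600 mg/kg, with a median change of -0.49. With slide as a block 2 of the 15 were called, both lower, where 2.81% of all tested genes were called. The summed signal of the 15 markers was 961 to 1012 times the 75th percentile of the array in the high animals and 1251 to 1310 times in the controls. At 300 mg/kg 2 of the 15 fell, about the share called over all tested genes there, which was 13%. At 150 mg/kg 0 were called by limma, where 0.101% of all tested genes were. Of 6 tested macrophage markers 5 rose at 600 mg/kg, with a summed signal of 28.2 to 30.8 times the 75th percentile in the high animals and 21.3 to 26.0 times in the controls. Of 6 endothelial markers 4 fell, and of 4 podocyte markers 1 fell. Further along the nephron, 1 of 5 markers of the thick ascending limb, 3 of 3 of the distal convoluted tubule and 3 of 7 of the collecting duct rose, as did 1 of 5 fibroblast markers. The counts of 1 among 4 or 5 markers are near the share over all genes. With slide as a block, 1 macrophage and 1 distal convoluted tubule marker were called, both higher, and 0 of the endothelial, podocyte, thick ascending limb, collecting duct and fibroblast markers were called by limma. Of 6 hepatocyte markers, Tat, Serpina1, Ttr and Cps1 were well above background on 0 of the 12 arrays. Alb was so on 2 high, 2 middle, 2 low and 1 control arrays. Apoa1 was so on all 12, with a change of 0.57 at 600 mg/kg (adjusted p = 0.255, limma). The proximal tubule list shares Slc13a3 with the substrate list and Slc5a2 with the glucose transporters. What part these shifts have in the changes of the 5 genes was not tested.

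Against the mean log2 signal of the 15 proximal tubule markers on the same array, the 5 genes parted. That mean itself was 5.24 to 5.33 in the high animals and 5.70 to 5.79 in the controls. A gene with an unchanged signal therefore lies higher on this scale in the high animals. How many of all tested genes lie apart on this scale was not counted. The values are those of the brighter or only probe unless the other is named. G6pc1 minus that mean was 0.53 to 0.78 in the high animals and 0.99 to 1.14 in the controls, so G6pc1 lay lower relative to the markers as well, and it was 1.30 to 1.42 in the middle animals. Its other probe lay lower too, at -3.29 to -2.95 in the high animals and -2.47 to -2.29 in the controls. Pck1 overlapped, at 0.86 to 1.06 in the high animals and 1.03 to 1.31 in the controls, whereas its other probe did not, at -0.00037 to 0.23 in the high animals and 0.30 to 0.57 in the controls. Slc37a4 was 0.33 to 0.37 in the high animals and 0.19 to 0.33 in the controls, no lower relative to the markers at the high dose, and its other probe overlapped (0.24 to 0.30 in the high animals and 0.14 to 0.27 in the controls). Fbp1, by its brighter probe, was 3.12 to 3.21 in the high animals and 2.80 to 2.91 in the controls. Its other probe went the opposite way by a narrow margin, at -0.16 to -0.11 in the high animals and -0.11 to -0.0038 in the controls. Fbp2 was -4.52 to -4.49 in the high animals and -6.51 to -6.34 in the controls; its low and middle animals lay between, from -6.02 to -4.80.

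**Figure D4:**
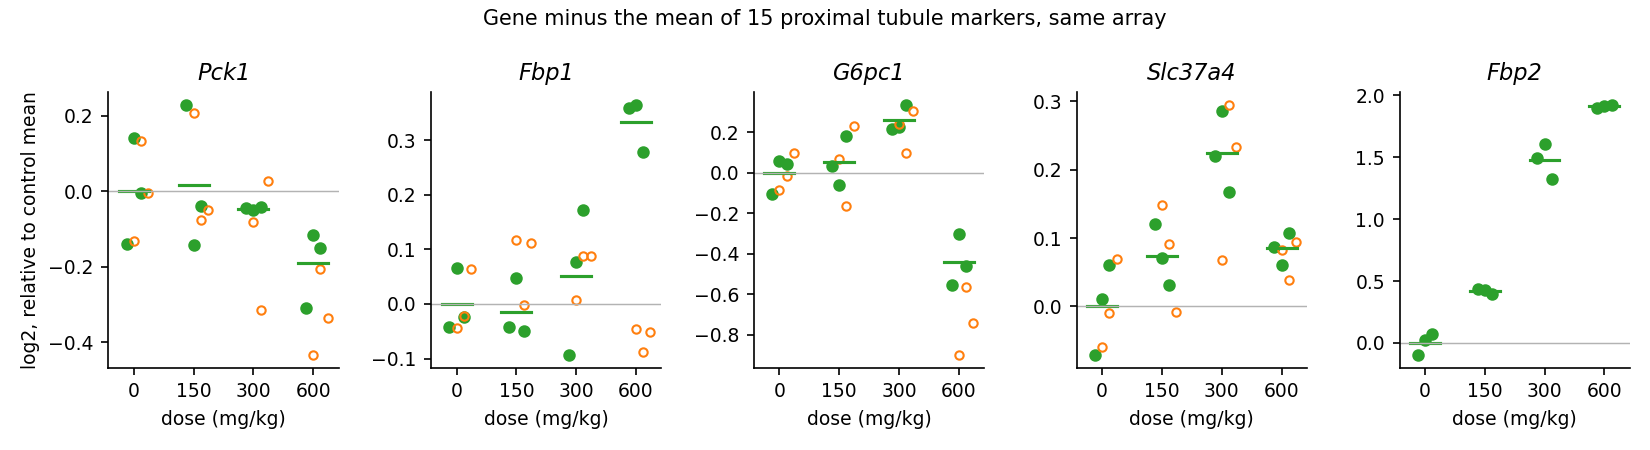
Log2 signal of each gene minus the mean of 15 proximal tubule markers on the same array, set to 0 at the control mean (vertical axis, its own scale in each panel), against dose in mg/kg. Points are animals, 3 per dose, filled for the brighter or only probe and open for the other probe, and bars are group means of the filled points. At 600 mg/kg G6pc1 lies below all controls on both probes and Fbp2 above them, while Pck1 overlaps them on its brighter probe alone and Fbp1 lies above them on its brighter probe and just below them on the other. The marker mean itself was lower at 600 mg/kg, so a gene with an unchanged signal lies above 0 there.

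Over the 12 arrays, the genes with a reference symbol whose values ran most like those of each gene were named as a description, with Pearson's r over 12 animals that fall into dose groups and share arrays. For G6pc1 they were Slc5a11 (0.975), Spp2 (0.974) and Mkrn3 (0.972), where Slc5a11 is a myo-inositol cotransporter. For Pck1 they were Bhmt2 (0.967), a methionine-forming methyltransferase, and Ehhadh (0.966), an enzyme of peroxisomal fatty acid oxidation. For Slc37a4 they were Suclg1 (0.981) and Mdh1 (0.979), enzymes of the citric acid cycle and of malate exchange, and Rmdn2 (0.980). For Fbp1 they were C5h1orf210 (0.947), Rab29 (0.930) and Ap5z1 (0.908), on the brighter probe. For Fbp2 they were the NADPH-dependent reductase Ptgr1 (0.982), Snrpn (0.981) and the apolipoprotein Apoc2 (0.979). The likeness was taken over 11012 genes and rests on the spread between doses as well as between animals.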

How the data were processed

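RNA from kidney cortex of 12 rats was labelled with Cy3 and hybridised to 12 single-colour Agilent arrays. The scans were read by Feature Extraction 9.1.3.1 from Agilent, per the file headers. The deposited processed, mean and background signals are linear intensities. The deposited flags of 0 or 1 mark spots as well above background, saturated, scaled up from a scan at low gain, or outliers. The authors also deposited a table of values, each a linear ratio of the processed signal (values under 5 set to 5) to 1 constant per array between 58.9 and 68.5. It has column medians of 1.003 to 1.005, is not centred by gene, and all 12 columns were used.

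From these, log2 processed signals, averaged over spots without outliers, were taken minus each array's 75th percentile. Per gene the probe with the highest mean over all arrays was used. Of 35527 genes or unmatched transcripts, 20759 passed the filter on dim probes (well above background on every array of some dose group) and were tested with limma 3.58.1 in R 4.3.3 (1 mean per group, 8 residual degrees of freedom, two-sided, Benjamini-Hochberg over all tested genes). The script was tested on simulated data with known changes. Probes were named through RefSeq's gene table by accession (10735), current symbol (5577) or older symbol (3730), and 20970 kept the array's name. The promoter windows are RefSeq's for GRCr8.

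The 5 genes, the lists and the alternatives were chosen with earlier results of these data known. Besides the 5 genes, the text names up to 2 higher and 2 lower genes per pathway list among those called at 600 mg/kg, and the 3 genes most like each of the 5. A few genes that this rule takes in are not reported here. Pck2, Pdk1 and the markers named were picked after their values were seen. Errors after a log2 change are standard errors with 3 animals per group, whose number limits the precision. Same-numbered arrays of different groups did not deviate together (correlations of -0.225 to 0.116 over 18 pairs, 1 of them over 0.1), so they were not paired. Alternatives covered scaling, background correction, the authors' value table, the filter on dim probes, the choice of probe, the fit, the slide and the scan day as blocks, a 2-fold limit and leaving out each array. Slides were read from the file headers.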

Additional observations from a re-analysis of the deposited data

How the results depend on the processing

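With the 5 genes each tested in 5 comparisons under 27 alternatives, 631 of 675 values kept their direction and their side of the threshold, 13 lost a call, 9 gained one and 22 turned sign. With slide as a block, 1 gene was called at 600 mg/kg against control in place of 4, and 2 in place of 4 for any difference among the groups. Of all 20759 tested genes, the block left 584 called in place of 7224, and 1005 in place of 7094. Against a 2-fold limit, 0 of the 5 genes were called at 600 mg/kg against control, at 300 mg/kg against control, at 600 against 300 mg/kg and at 300 against 150 mg/kg. In the same order, 43, 4, 24 and 0 of all 20759 tested genes were called against that limit. Array weights called 1 gene, Fbp2, at 150 mg/kg (adjusted p = 0.0233 in limma), where 133 of all tested genes were called in place of 21. The fit of only the compared groups called 0 of the 5 at 300 against 150 mg/kg. There it called 0 of all 20759 tested genes, so that count is not particular to the 5. Replicate block: with the replicate number as a block the count at 600 mg/kg against control stayed at 4 (adjusted p = 0.000268 for G6pc1), and it changed no other call. That fit called 6708 of all 20759 tested genes at 600 mg/kg against control. Without any 1 animal, G6pc1, Pck1, Slc37a4 and Fbp2 were still called at 600 mg/kg, with adjusted p up to 0.000605, 0.00925, 0.00851 and 5.27e-05. Fbp1 at 600 mg/kg was called under quantile normalization (log2 -0.21, adjusted p = 0.00252), with the mean of its probes, with only the compared groups (adjusted p = 0.0232), with array weights (0.0279) and without middle animal 1 (0.0216) or 3 (0.0419). The values that turned sign were all uncalled. For Fbp1 they were, at 300 mg/kg against control, 0.0021 with a median shift, 0.0047 with normexp, 0.0029 with the authors' table, 0.0027 with scan day as a block and 0.036 without middle replicate 1 (-0.087 to 0.036 over single arrays left out); at 150 mg/kg against control, 0.013 with normexp, 0.024 with the mean of probes, 0.018 with slide as a block and 0.012 with scan day as a block; and at 300 against 150 mg/kg, 0.022 with a median shift, 0.023 with the authors' table, 0.0099 without low replicate 1 and 0.058 without middle replicate 1 (range -0.066 to 0.058). For Pck1 they were 0.30 at 300 mg/kg against control and 0.0047 at 300 against 150 mg/kg with slide as a block, -0.018 with quantile normalization, -0.055 without control replicate 1 and -0.13 without low replicate 1 at 150 mg/kg (range -0.13 to 0.12), and 0.0023 at 300 against 150 mg/kg without low replicate 1 (range -0.25 to 0.0023). G6pc1 at 150 mg/kg was -0.00013 without control replicate 1 and -0.016 without low replicate 3 (range -0.016 to 0.13), and Fbp2 at 600 against 300 mg/kg was -0.040 without middle replicate 3 (range -0.040 to 0.11). Where no value shows the cause of such a change, the cause was not tested. Scaling by quantiles or a median shift moved the median of all genes by at most 0.033 (log2).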
